A study of Rattus norvegicus with 46 samples.

Results

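The circadian clock genes described here are Per1, Per2, Per3, Cry1, Cry2, Bmal1, Nr1d1, Nr1d2, Dbp and Tef, measured in biopsies of rat abdominal skin. They were chosen by symbol, as the 10 features of the array that the platform annotation pairs with these names, out of 23188 features tested, of which 15049 carry 1 gene symbol. The choice was made knowing that Per2, Dbp and Bmal1 differed from the pretreatment baseline even in skin that was never irradiated. Differences from baseline are therefore given below as a description, with no test. All 10 genes passed the filter on dim features that was tried as an alternative.

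The study asked whether RTA-408, a synthetic triterpenoid known to activate the stress-response factor Nrf2, alters gene expression in irradiated skin. Sprague-Dawley rats gave 46 punch biopsies of 5 mm, each hybridised to 1 Clariom S array. The baseline group holds 6 biopsies taken on day -10, before any injection or irradiation. The other biopsies came from days -4, 1, 3, 7 and 14 and form 3 arms. In 2 of them the skin was irradiated, in rats injected with RTA-408 (3 rats) or with the DMSO vehicle (3 rats). The full course was 40 Gy of 6 MeV electrons in 4 fractions of 10 Gy. Unirradiated skin came from rats injected with vehicle and given sham irradiation (2 biopsies per day). Injections fell on days -7, -5, -3 and 0 in all 3 arms, so the day -4 biopsies were taken in the middle of treatment. Their titles call them mid-treatment, so the 40 Gy course need not have been complete on day -4. Radiation comparisons of day -4 and averages over the 5 days include these biopsies. The same rats were biopsied again and again: the unirradiated arm used rats 319 and 318 on days -4, 1 and 3, and rats 319 and 317 on days 7 and 14. The sources used here give no hour of the day for any biopsy, no sex and no age.

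The mammalian clock is a transcriptional feedback loop that runs in nearly every cell, skin included. BMAL1 and its partner CLOCK bind E-box sequences and switch on the Period and Cryptochrome genes, whose proteins return to the nucleus and repress BMAL1 and CLOCK. The nuclear receptors NR1D1 and NR1D2, also called REV-ERB alpha and beta, are switched on by the same E-boxes and repress Bmal1, which puts Bmal1 RNA in opposite phase to the Period genes and to Dbp. Dbp and Tef encode PAR bZIP factors, which carry the rhythm to output genes through D-box sequences. In skin, clock genes are known to cycle in keratinocytes, fibroblasts and hair follicle cells.

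The arrays were comparable in overall level, with median log2 signals between 6.84 and 6.95 over all features of an array. Values are the deposited log2 signals, and a difference is a difference between group means on that scale. The highest signals reached 19.66 to 19.93, so the scale is wider than raw scanner values and a difference of 1 is not taken as a measured doubling. The median of the 1153 negative control features lay between 5.78 and 6.52 in the 46 arrays, and a signal at or below its own array's median is read as not above background. Keratinocyte and fibroblast markers were well above it in every array, with Krt14 between 15.88 and 18.87 and Col1a1 between 17.69 and 19.48. The T cell markers Cd3d, Cd3e and Cd3g were at it in all 46. Skeletal muscle markers were bright in most biopsies (array means of 13.6 to 19.42) and low in 3, namely baseline replicate 2 (6.22), RTA-408 day -4 replicate 1 (6.7) and unirradiated day 1 replicate 1 (9.37). In such mixed tissue, fewer cells of a type and less RNA per cell cannot be told apart.

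Because 9 of the 10 members have RefSeq promoter windows (10 windows, build GRCr8), the 250 bases before each annotated start were searched on both strands. The motifs searched were the E-box CACGTG, its variant CACGTT, the D-boxes TTATGTAA and TTACGTAA, and AGGTCA, the core sequence bound by the REV-ERB and ROR receptors. No matches overlapped. The following stretches show part of the matches, those of Per2, Tef, Bmal1 and the inner start of Nr1d1, with the motif in capitals.
Per2, E-box variant, chr9:99497038-99497067, minus strand: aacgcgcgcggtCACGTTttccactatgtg
Per2, D-box, chr9:99497167-99497196, minus strand: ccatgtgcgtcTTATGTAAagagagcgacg
Nr1d1, E-box of the inner start, chr10:84229628-84229657, minus strand: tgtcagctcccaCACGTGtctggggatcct
Tef, E-box, chr7:115206617-115206646, plus strand: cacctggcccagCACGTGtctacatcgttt
Bmal1, receptor core sequence, chr1:176766301-176766327, plus strand: aaggcagaaagtAGGTCAgggacggag
The Per2 window held the E-box variant at -62 and the D-box at -192, counted in bases from the start. Tef and the inner start of Nr1d1 held CACGTG, and Bmal1 and Nr1d2 held AGGTCA. Cry2 and the outer start of Nr1d1 held CACGTT on the reverse strand, and the windows of Per1, Per3 and Dbp held none of the 5 motifs. Of the 10 windows, 6 lay inside or overlapped the annotated gene, so they need not belong to its outermost start. They were those of Per1, Per2, Per3, Bmal1, Tef and the inner start of Nr1d1. Among all 33469 windows of this length, 5.59% held CACGTG, 4.07% CACGTT, 0.828% TTATGTAA, 0.108% TTACGTAA and 14.1% AGGTCA. A match is a description of letters only. Dbp, which moved most, is shown whole, since its window lies wholly outside the annotated gene and holds no match.
Dbp, chr1:105312006-105312255, plus strand: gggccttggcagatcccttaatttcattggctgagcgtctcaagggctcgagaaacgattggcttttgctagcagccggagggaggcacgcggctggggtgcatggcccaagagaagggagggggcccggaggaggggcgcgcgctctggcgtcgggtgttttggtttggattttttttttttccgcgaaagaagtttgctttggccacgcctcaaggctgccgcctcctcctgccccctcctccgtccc

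In both irradiated arms the Period genes, Dbp and Tef were higher on days -4 and 1 than on days 7 and 14, and Bmal1 ran the other way. In unirradiated skin the same held of these means, but there the day 14 means of Per1 (9.98) and Per2 (8.21) were above those of day 7 (9.6 and 7.65), and that of Bmal1 (9.2) was below it (9.49). The baseline means of these genes lay nearer to those of day 14 or day 7 than to those of days -4 and 1.

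**Figure D1:**
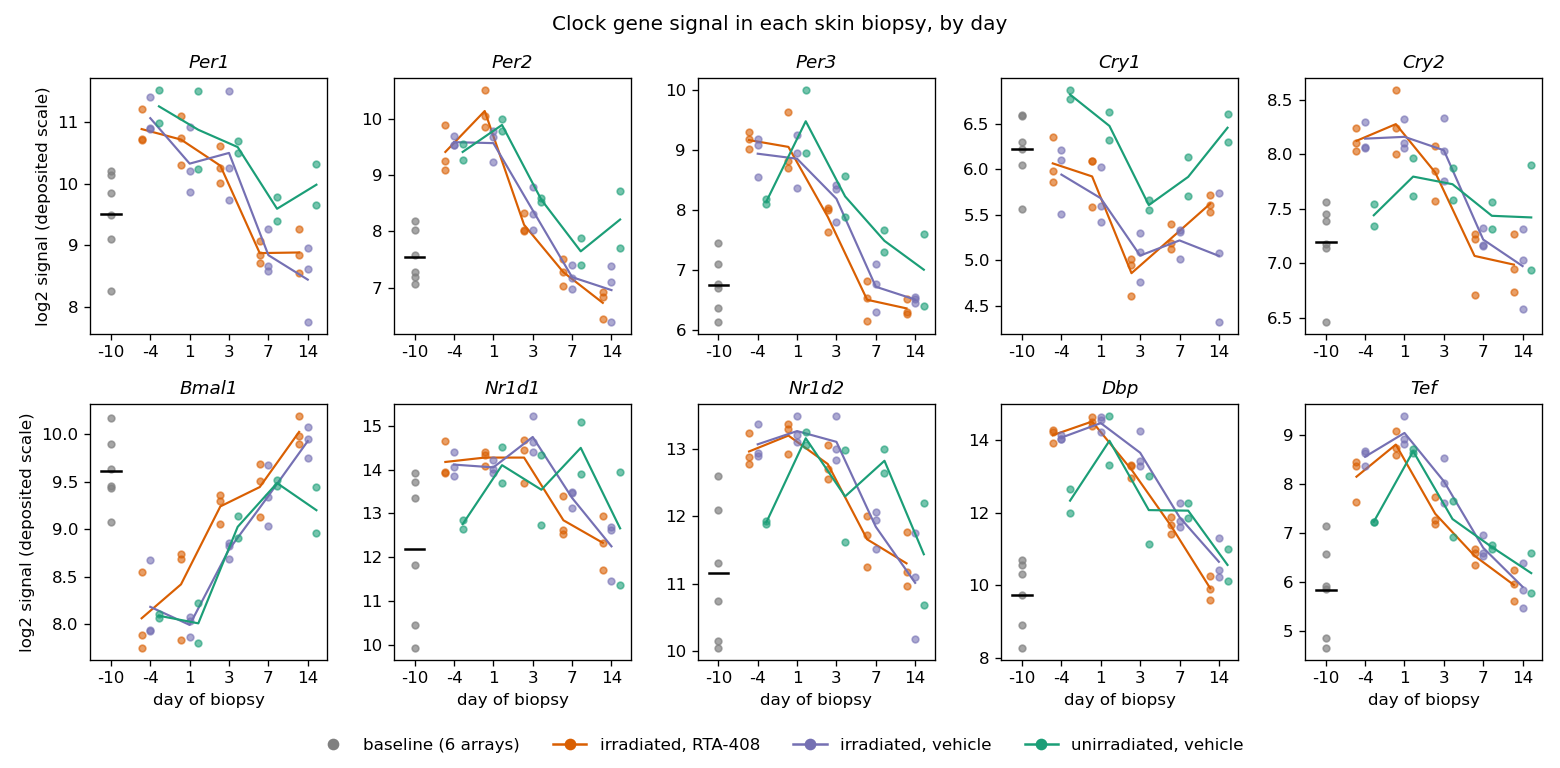
Log2 signal (vertical axes, each gene on its own range) of the 10 clock genes in each biopsy by day (horizontal axes, days spaced equally and not to scale). Points are single arrays, coloured lines join the day means of an arm and the black bar is the baseline mean. Dbp has day 1 means of 14.51, 14.47 and 13.98 and day 14 means of 9.91, 10.65 and 10.56 in the RTA-408, vehicle and unirradiated arms, and Bmal1 is highest on day 14 in both irradiated arms.

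Dbp had the widest range of the 10 genes. At baseline it ranged from 8.27 to 10.69 around a mean of 9.74 ± 0.98 (SD, n = 6). In the irradiated vehicle arm it read 14.03, 14.04 and 14.13 on day -4, 14.63, 14.21 and 14.56 on day 1, 13.41, 13.29 and 14.25 on day 3, 11.61, 12.26 and 11.76 on day 7, and 10.22, 10.43 and 11.29 on day 14. The RTA-408 arm ran beside it, at 13.92, 14.27 and 14.21, then 14.64, 14.49 and 14.4, then 13.32, 13.28 and 12.95, then 11.4, 11.88 and 11.65, and last 9.9, 10.25 and 9.6 on the same 5 days. Every irradiated biopsy of days -4, 1 and 3 was above every baseline biopsy, whichever injection the rat had received. In unirradiated skin Dbp read 12.66 and 12 on day -4, 14.66 and 13.3 on day 1, 13 and 11.14 on day 3, 11.84 and 12.27 on day 7, and 10.13 and 10.99 on day 14. The day means thus stood in the same order in both irradiated arms, with day 1 highest, then days -4, 3, 7 and 14. Unirradiated means followed it too, except that days 3 and 7 were level there, at 12.07 and 12.06 (n = 2 each). Relative to baseline, unirradiated Dbp was higher by 2.59 on day -4, 4.24 on day 1, 2.33 on day 3, 2.31 on day 7 and 0.82 on day 14. With 2 arrays a day these differences depend on single rats: day 3 gave 1.39 without rat 319 and 3.26 without rat 318, and day 14 gave 1.24 without rat 319, 0.39 without rat 317 and 0.52 without the baseline array of rat 323. The 15 arm and day groups all share the same 6 baseline arrays.

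Tef, the other PAR bZIP gene, had the same order of days as Dbp in both irradiated arms, while day 3 was above day -4 in unirradiated skin. It was near the negative controls at baseline, with a lowest value of 4.66 and a highest of 7.15 (mean 5.84 ± 0.96, SD, n = 6). Its day 1 means were 8.8 ± 0.25 with RTA-408 (n = 3), 9.04 ± 0.3 with vehicle (n = 3) and 8.66 without irradiation (8.62 and 8.71). By day 14 the means were 5.94, 5.91 and 6.18 in that order. Tef was at or below the negative control median in 8 of 46 arrays, so its lowest levels are upper bounds rather than levels.

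Among the Period genes, which encode the repressors that pair with the Cryptochromes, Per2 had the widest range of day means in both irradiated arms and Per3 in unirradiated skin. Baseline Per2 ranged from 7.07 to 8.18 (mean 7.55 ± 0.46, n = 6). In irradiated vehicle skin it read 9.53, 9.53 and 9.69 on day -4, 9.67, 9.24 and 9.79 on day 1, 8.31, 8.02 and 8.79 on day 3, 6.97, 7.18 and 7.41 on day 7, and 7.1, 6.39 and 7.38 on day 14. With RTA-408 it read 9.25, 9.89 and 9.09, then 10.51, 10.05 and 9.85, then 8.32, 8.02 and 8.01, then 7.51, 7.03 and 7.28, and last 6.44, 6.92 and 6.83. Days -4 and 1 stood apart from day 3 in both irradiated arms, and day 3 stood apart from day 7. Unirradiated Per2 read 9.55 and 9.27, then 9.78 and 10, then 8.52 and 8.6, then 7.89 and 7.4, and last 8.72 and 7.7, so it was not lowest on day 14. Per3 had a like course, with a baseline of 6.14 to 7.45 and day 1 means of 9.06, 8.86 and 9.48 in the RTA-408, vehicle and unirradiated arms. Its day 14 means were 6.36, 6.51 and 7.01. Per1 was highest on day -4 in each arm, at means of 10.89, 11.06 and 11.25, against a baseline of 8.26 to 10.2.

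Bmal1, the activator of the loop, had the opposite course. Baseline Bmal1 ranged from 9.08 to 10.17 (mean 9.61 ± 0.38, n = 6). In irradiated vehicle skin it read 8.68, 7.93 and 7.94 on day -4, 8.03, 8.08 and 7.87 on day 1, 8.82, 8.69 and 8.85 on day 3, 9.68, 9.03 and 9.34 on day 7, and 9.75, 9.95 and 10.08 on day 14. With RTA-408 it read 7.75, 8.55 and 7.89, then 7.83, 8.74 and 8.69, then 9.3, 9.36 and 9.06, then 9.69, 9.51 and 9.13, and last 10.19, 9.9 and 9.98. All irradiated biopsies of days -4 and 1 were below all baseline biopsies. Unirradiated Bmal1 read 8.07 and 8.11, then 8.22 and 7.8, then 8.91 and 9.14, then 9.52 and 9.45, and last 8.96 and 9.44. Its highest day was therefore day 7 in unirradiated skin and day 14 in irradiated skin.

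Nr1d1 and Nr1d2, the receptors that repress Bmal1, differed widely between the baseline biopsies. Baseline Nr1d1 read 10.45, 9.93 and 11.83 in rats 324, 323 and 322, and 13.92, 13.35 and 13.72 in rats 321, 319 and 318. Day means of Nr1d1 ran from 12.25 to 14.74 in the irradiated vehicle arm, from 12.33 to 14.27 with RTA-408 and from 12.66 to 14.5 in unirradiated skin. Nr1d2 was highest on day 1 in each arm, at means of 13.2, 13.27 and 13.16 in the order RTA-408, vehicle and unirradiated, and lowest on day 14, at 11.3, 11.01 and 11.43. The baseline range of Nr1d2, from 10.04 to 12.6, overlapped the day 14 values.

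The Cryptochromes encode the partners of the PER proteins in repression. Cry2 had group means between 6.97 and 8.28, highest on day 1 and lowest on day 14 in each arm. Cry1 was at or below the negative control median in 34 of 46 arrays, so most of its values say only that it was not above background. Group means above background were those of the baseline, where 2 of 6 arrays were at or below it, and of unirradiated skin on days -4, 1 and 14.

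Of the 9 rats, 6 had a baseline array of their own, which allows each rat to be read against itself. Dbp was above the rat's own baseline in 6 of 6 rats on days -4, 1 and 3, in 5 of 5 on day 7 and in 3 of 5 on day 14, with median differences of 3.89, 4.62, 3.2, 1.87 and 0.48. Per2 was above in 6 of 6 rats on days -4, 1 and 3 and in 1 of 5 on day 14. Bmal1 was below in 6 of 6 rats on days -4, 1 and 3, with median differences of -1.58, -1.51 and -0.52. The 2 unirradiated rats with a baseline, 319 and 318, showed Dbp higher by 2.36 and 1.31 on day -4 and by 4.35 and 2.61 on day 1. These rats received neither radiation nor RTA-408.

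A test of the change over the 5 days used each arm's own biopsies and no baseline array (limma, moderated F-test over 16 group means with 30 residual degrees of freedom, Benjamini-Hochberg adjustment over all features, called under 0.05). The same later arrays entered the differences from baseline by which the genes were chosen, so the test is not independent of that choice. In the RTA-408 arm 9 of 10 members changed, against 6.26% of all features. Per2 ranked 1 of 23188 (adjusted p = 2.36e-09), followed among the members by Per3 and Dbp (both 5.31e-08), Bmal1 (8.78e-06) and Tef (2.26e-05). Cry2, Per1 and Nr1d2 also passed (0.000448, 0.000774 and 0.0138), and Nr1d1 did not (0.134). The ninth call was Cry1, whose mean was at the negative controls on every day of both irradiated arms, so that no change in its level can be read from the call. Apart from it, 8 of the 9 members measured above background on some day passed. In the irradiated vehicle arm the count was again 9 of 10, against 14.2% of all features, with Per2 at rank 3 (2.3e-08), Per3 at 4.17e-07, Dbp at 6.45e-07, Tef at 1.65e-06 and Bmal1 at 3.15e-06. Per1, Cry2 and Nr1d2 passed there too (5e-05, 0.00046 and 0.00128), Nr1d1 again did not (0.076), and Cry1 was again called at the level of the negative controls, which leaves 8 of 9.

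In unirradiated skin 5 of 10 members passed the test over days, against 1.13% of all features. They were Per2, Dbp, Bmal1, Per3 (adjusted p = 0.0114) and Tef (0.0341). For Per2, Dbp and Bmal1 these arrays are the ones whose difference from baseline led to the choice of the genes. Their calls are given as a description, with no p, and nothing rests on them. Every count of members over days in this arm includes these genes, so it is a description too. Day means of Dbp spanned 3.42 there, against 4.6 with RTA-408 and 3.82 with vehicle in irradiated skin. The 5 calls did not hold under every alternative. With rat as a fixed block, with the batch read from spike-in controls as a block, or with the arm fitted alone, 0 of the 5 remained past the threshold. These settings called 0.00431%, 0.267% and 0% of all features. Leaving out a rat of this arm left some days with 1 array each, and calls were lost in each of these fits. In the irradiated arms the count of members called lay between 7 and 10 under every alternative run. The share of all features lay between 1.66% and 13.3% with RTA-408 and between 4.21% and 19.4% with vehicle. No share was taken for the filter on dim features, which tested fewer. With the fixed rat block it was 10 with RTA-408, against 8.09% of all features, and 9 with vehicle, against 5.82%. With RTA-408 the Cry1 call was lost whenever any rat was left out (adjusted p = 0.102 to 0.222), and that of Nr1d2 reached 0.257. With vehicle Cry1 reached 0.277 and Nr1d2 0.122.

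No label names a batch, but the signals of 2 spike-in control features split the arrays, at their widest gaps, into 3 sets, called batches I, II and III here. What step they stem from was not tested. Batch I holds the baseline, the unirradiated biopsies of days -4 and 1 and most irradiated biopsies of those days, batch III holds the later unirradiated biopsies and most later irradiated ones, and batch II holds 1 array of each irradiated arm and day. The baseline and most biopsies of days -4 and 1 therefore share a batch. Within the 10 arrays of batch II, with the arm as a term, 8 of 10 members passed the test over days, against 8.3% of all features. The RTA-408 arrays of that batch come from rat 303 on days -4 and 1 and from rat 323 on days 3, 7 and 14. Early and late days therefore cannot be told apart from the rat in that arm. In the unirradiated arm, days up to 1 and days from 3 on lie in different batches and cannot be told apart from them, except that days -4 and 1 share a batch, as do days 3, 7 and 14.

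Over the 46 arrays the members covaried in 2 opposed sets. Bmal1 correlated with Per2 at r = -0.89, with Per3 at -0.85, with Tef at -0.81 and with Dbp at -0.79, while Dbp correlated with Tef at 0.94 and Nr1d1 with Nr1d2 at 0.94. These are descriptions over arrays that share rats, days and batches. Once each group's mean was taken away, Bmal1 and Dbp had r = -0.07 and Bmal1 and Per2 -0.33, so the opposition lay between groups more than between rats of a group. The pair Nr1d1 and Nr1d2 kept r = 0.92 and Dbp and Nr1d1 kept 0.77 after the same step. Within batch II, whose 10 arrays span all 5 days of both irradiated arms, Bmal1 had r = -0.81 with Per2 and -0.87 with Dbp.

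**Figure D2:**
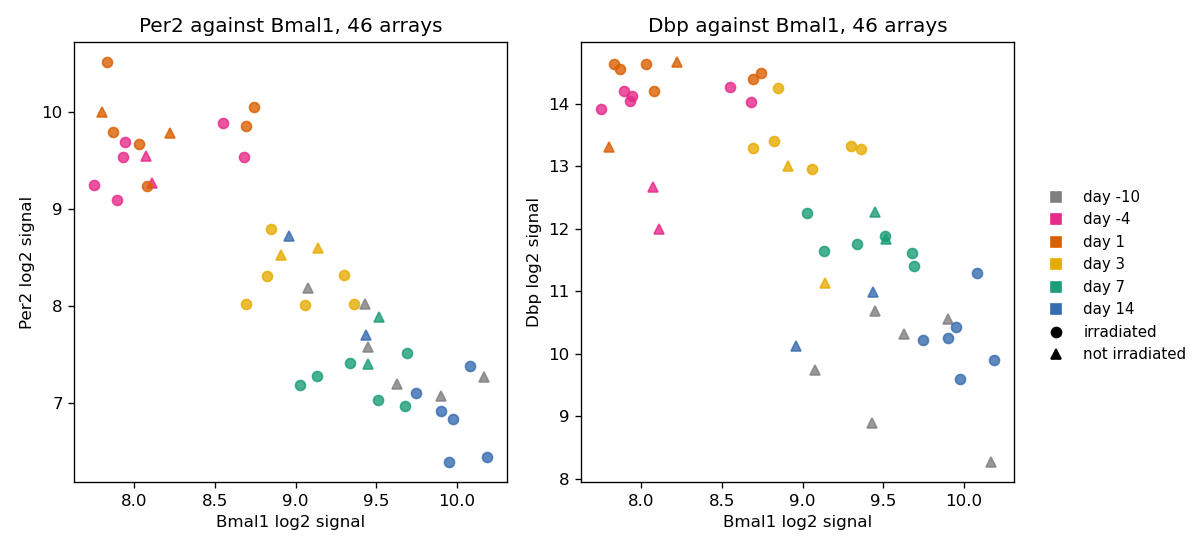
Per2 (left) and Dbp (right) log2 signal against Bmal1 log2 signal, 1 point per array (46 arrays), coloured by day, with circles for irradiated and triangles for unirradiated skin including baseline. Arrays of days -4 and 1 sit at low Bmal1 with high Per2 and Dbp, and arrays of baseline, day 7 and day 14 at the other end (r = -0.89 and -0.79).

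Of 9357 named features brighter than the negative controls, the 3 closest to Dbp over the 46 arrays were members, Tef (r = 0.94), Nr1d2 (0.89) and Per3 (0.89). Next came Ephx1, a microsomal epoxide hydrolase (0.86), and Tnfrsf18, a receptor of the TNF family (0.85). The most opposed to Dbp were Bmal1 (-0.79) and then Fam83d, Racgap1, Tk1 and Kif23 (all -0.75), which are genes of cell division or DNA synthesis. The most opposed to Bmal1 were Per2, Per3, Tef and Dbp, followed by Pnpla2 (-0.76), a triglyceride lipase. The closest to Bmal1 were RT1-Da (0.67), Cd74 (0.66), Clock (0.62), Adgre4 (0.61) and RT1-DMa (0.61), and 3 of these (RT1-Da, Cd74 and RT1-DMa) are genes of MHC class II antigen presentation. For RT1-DMa the correlation was 0.22 within batch I and 0.76 within batch III.

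RTA-408 against vehicle was compared between irradiated biopsies of the same day. No member passed the threshold of limma with Benjamini-Hochberg adjustment on any of the 5 days, against 0.0474%, 0.0733%, 0.00431%, 0% and 0% of all features on days -4, 1, 3, 7 and 14. At an unadjusted p under 0.05 the count of members was 0 on the first 4 of these days and 1 on day 14. The shares of all features under that p were 4.21%, 2.84%, 3.44%, 2.64% and 12.5% in the order of the days. The member on day 14 was Cry1, which was at the negative controls in both groups. For members above the negative controls in at least 1 group, the differences, RTA-408 minus vehicle, ran from -0.41 to 0.23 on day -4, from -0.24 to 0.57 on day 1, from -0.66 to 0.45 on day 3, from -0.51 to 0.09 on day 7 and from -0.73 to 0.44 on day 14. The largest were Dbp on day 14 (-0.73 ± 0.46 SE), Tef on day 3 (-0.66 ± 0.39) and Per2 on day 1 (0.57 ± 0.29). The RTA-408 values of Per2 on day 1 (9.85 to 10.51) were all above those with vehicle (9.24 to 9.79), and those of Bmal1 on day 3 (9.06 to 9.36) above 8.69 to 8.85, without either passing the test (adjusted p = 1 for both). Averaged over the 5 days, the differences lay between -0.28 (Tef) and 0.19 (Bmal1), and 0 of 10 members were called, against 0.0733% of all features. At an unadjusted p under 0.05 the count was also 0, against 4.62% of all features. A test of whether the drug difference varied between days called 0 members, against 0.0129% of all features. At an unadjusted p under 0.05 it again had 0 members, against 5.18% of all features. With 3 rats per arm the standard error of a single day was between 0.24 (Cry2) and 0.7 (Nr1d1), so these counts do not show that the arms were alike.

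**Figure D3:**
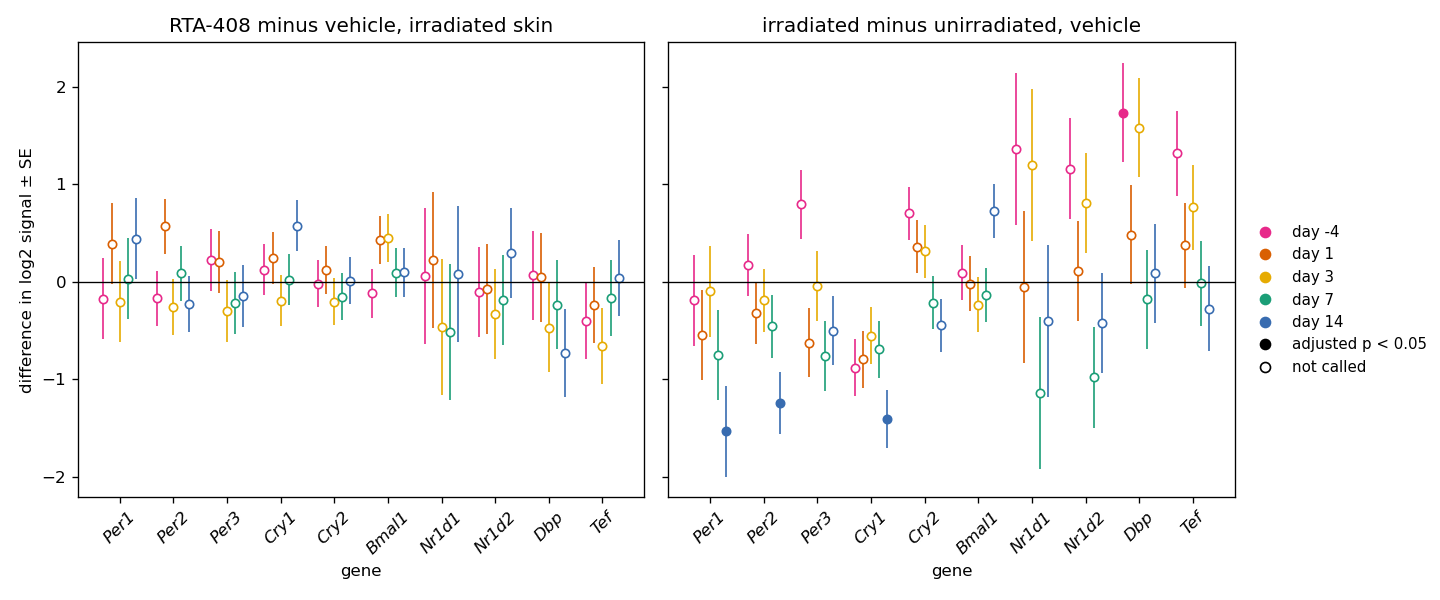
Differences in log2 signal (vertical axis, ± SE of the limma fit) for the 10 clock genes (horizontal axis), RTA-408 minus vehicle in irradiated skin (left) and irradiated minus unirradiated vehicle skin (right), coloured by day, with filled points for adjusted p under 0.05. No point is filled on the left, and on the right Dbp on day -4 and Per1, Per2 and Cry1 on day 14 are.

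Irradiated and unirradiated vehicle skin were compared on each day with 3 against 2 arrays. On day -4 Dbp was higher in irradiated skin by 1.74 ± 0.51 (SE; adjusted p = 0.0309, limma), with all 3 irradiated values above both unirradiated ones. It was the only member called, against 3.23% of all features called higher. Tef was 1.32 ± 0.44 higher and Nr1d2 1.16 ± 0.52 higher without passing the test (adjusted p = 0.0575 and 0.179). Nr1d1 was 1.36 higher, also without passing. At an unadjusted p under 0.05 stood 6 members on day -4, against 21.4% of all features. The Dbp difference lost its call when any single array of the 5 was left out, with adjusted p between 0.0564 and 0.295, and remained at 1.76 within batch I (0.0308). On days 1, 3 and 7 the count of members called was 0, against 2.1%, 1.3% and 4.02% of all features, with 1, 1 and 2 members at an unadjusted p under 0.05, against 16.4%, 13.6% and 17.9% of all features. On day 3 Dbp was 1.58 ± 0.51 higher in irradiated skin without passing the test (adjusted p = 0.116).

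On day 14 Per1, Per2 and Cry1 were lower in irradiated skin, 3 of 10 members, against 2.53% of all features called lower. Per1 read 8.96, 7.76 and 8.62 in irradiated and 9.65 and 10.32 in unirradiated vehicle skin, a difference of -1.54 ± 0.47 (SE; adjusted p = 0.0382, limma). Per2 differed by -1.25 ± 0.32 (0.0146). Cry1 differed by -1.41 ± 0.29 (0.00333), but its irradiated mean was at the negative controls, so the difference is at least 0.32. Bmal1 was 0.72 ± 0.28 higher in irradiated skin without passing the test (0.122). At an unadjusted p under 0.05 stood 4 members, against 18.4% of all features. All 3 calls were lost without the unirradiated rat 319, when the 2 groups were fitted alone, with the replicate number as a block, or within batch III, and only Cry1 stayed called without the vehicle rat 321 (adjusted p = 0.0248). On that day all 5 macrophage markers were higher in irradiated skin, with a median difference of 3.99. The mean of 4 hair follicle keratins lay between 4.78 and 15.27 in irradiated and between 15.49 and 17.64 in unirradiated vehicle skin. Of these 4 keratins 1 was called lower. Their part in the clock gene differences was not tested.

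Averaged over the 5 days with rat as a random block, irradiated vehicle skin had higher Dbp and lower Per1, Per2 and Cry1 than unirradiated skin. Against these 4 of 10 members stood 9.97% of all features called higher and 9.21% called lower. Dbp was higher by 0.74 ± 0.23 (SE; adjusted p = 0.0195, limma), with the irradiated mean above the unirradiated one on 4 of 5 days. Per1 differed by -0.62 ± 0.21 (0.0333) and was lower on 5 of 5 days. Per2 differed by -0.41 ± 0.14 (0.0426) and was lower on 4 of 5 days. Cry1 differed by -0.87 ± 0.13 (1.29e-05) with no overlap of the groups on any day. Its irradiated means were at the negative controls throughout, so only bounds can be given, at least 0.43 on day -4, 0.3 on day 1 and 0.32 on day 14, and none on days 3 and 7, when both groups were at the controls. The count fell to 1 member without rat 318, against 9.4% of all features. It fell to 2 without rat 319, 321 or 322, against 12%, 15.8% and 18.7% in that order. Cry1 was the member called under every alternative run (adjusted p up to 0.00205). Dbp lost its call without rat 318 (0.35, adjusted p = 0.389), without rat 320 (0.102) and in the fit blocked on replicate number (0.61, adjusted p = 0.1). Among the rats left out in turn, Per1 kept its call only without rat 320, and Per2 only without rat 317 or rat 320, and Per2 also lost it with batch as a block (0.0908). With the muscle marker mean as a covariate Per1 was at 0.0552. Whether the radiation difference itself changed between days was tested too, and 0 members passed, against 2.16% of all features, with 5 members at an unadjusted p under 0.05, against 19% of all features.

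Hair follicle keratins moved with Cry1. The mean of Krt71, Krt25, Krt27 and Krt35 lay between 5.11 and 12.11 in the irradiated groups, between 7.38 and 17.51 in the unirradiated groups and at 16.85 ± 1.51 at baseline (n = 6). Averaged over the days all 4 were called lower in irradiated skin, by an amount that cannot be given, since 3 of them were at the negative controls in 17 to 21 of the 46 arrays. Over the 46 arrays Cry1 correlated with that mean at r = 0.77, and at 0.59 once group means were taken away. Cry1 was at or below the negative control median in 34 of these arrays, so most of its values are not levels. It also correlated over the arrays with the marker means of sebaceous gland (0.64), mast cells (0.55), fibroblasts (-0.6) and macrophages (-0.57). For Per2 and Dbp the correlations with the hair follicle keratin mean over the arrays were 0.21 and -0.31. The muscle marker mean correlated with Nr1d1, Tef and Cry2 within groups (r = 0.47, 0.5 and 0.46). With it as a covariate, added after the data were seen, 10, 9 and 5 members passed the test over days in the RTA-408, vehicle and unirradiated arms, against 6.16%, 14.5% and 1.36% of all features.

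Part of a list of genes known to be induced by glucocorticoids changed over the days in irradiated skin. Glucocorticoids are adrenal hormones with a daily rhythm that also rise under stress, and Per1 is among the genes they are known to induce. Of 10 such genes other than the members, 5 changed over the days with RTA-408, 5 with vehicle and 0 in unirradiated skin. The shares of all features were 6.26%, 14.2% and 1.13%. Fkbp5, a co-chaperone of the glucocorticoid receptor, had means of 9.72, 11.48, 8.66, 8.29 and 7.73 on the 5 days with RTA-408 (adjusted p = 1.36e-06, limma) and of 9.85, 10.33, 8.55, 8.48 and 7.91 with vehicle (0.000235). Its unirradiated means were 9.71, 10.6, 9.33, 9.57 and 9.01, against 8.54 ± 0.6 at baseline (n = 6). Zbtb16, a zinc finger repressor, also passed in both irradiated arms (3.17e-06 and 0.000872), as did Tsc22d3 (0.00186 and 0.0049), which encodes the leucine zipper protein GILZ. Sgk1, a kinase of ion transport, passed with RTA-408 (0.00786) in the other direction, with means of 12.61 on day -4 and 11.18 on day 1. The mean of the 10 genes was 10.64 ± 0.16 at baseline and 11.41 ± 0.15 on day 1 with vehicle (n = 3). Over 46 arrays it correlated with Per2 at r = 0.81, with Dbp at 0.82, with Per1 at 0.76 and with Bmal1 at -0.74. Taken from group means, the values were 0.09, 0.25, 0.53 and -0.04. Its part in the clock gene course was not tested. Of 10 immediate early genes, which respond quickly to handling or injury, 0, 1 (Nr4a1) and 0 changed over the days in the same 3 arms. These counts stand against the same 6.26%, 14.2% and 1.13% of all features. The mean of the immediate early genes correlated with Per2 at r = -0.18 and with Dbp at -0.22 over the 46 arrays.

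**Figure D4:**
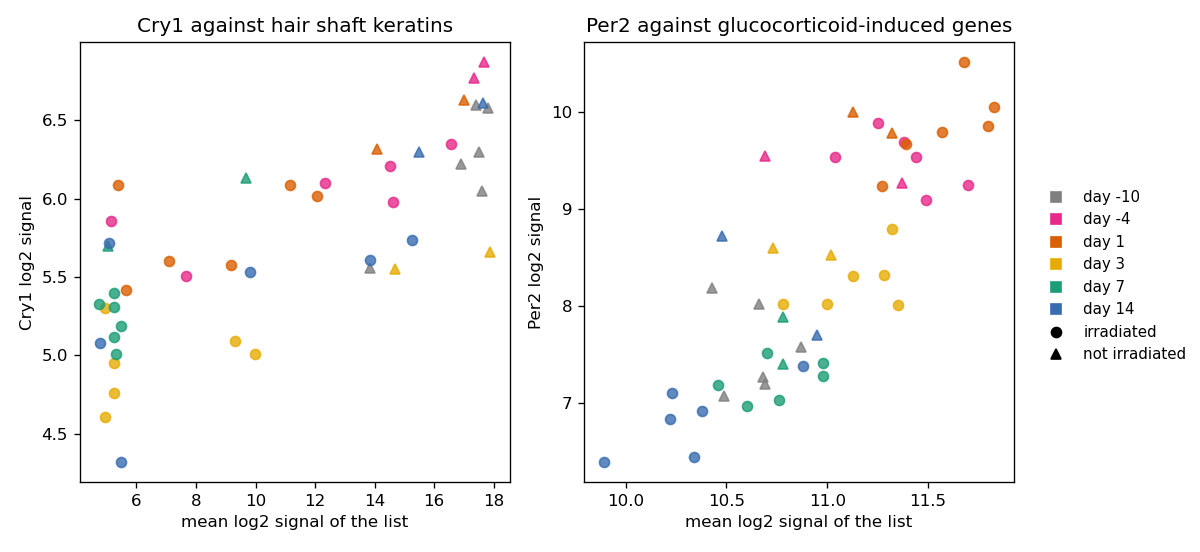
Left, Cry1 log2 signal against the mean log2 signal of 4 hair follicle keratins (titled hair shaft keratins in the panel). Right, Per2 log2 signal against the mean log2 signal of 10 glucocorticoid-induced genes. Each point is 1 array (46 arrays), coloured by day, circles for irradiated and triangles for unirradiated skin including baseline (r = 0.77 and 0.81). Cry1 was at or below the negative control median in 34 of the 46 arrays.

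Other regulators of the clock were taken from a list chosen by function. Of 18 further regulators 12 were measured. Over the days 1 of them changed with RTA-408 (Ciart, adjusted p = 0.000174), 3 with vehicle (Ciart 0.00021, Clock 0.0129, Nfil3 0.0343) and 1 in unirradiated skin (Clock, 0.0197), all by limma. The shares of all features were 6.26%, 14.2% and 1.13% in that order. Ciart, a repressor of CLOCK and BMAL1, was at the negative controls at baseline (4.78 to 5.49) and had day 1 means of 6.82, 6.3 and 6.77 in the RTA-408, vehicle and unirradiated arms. Nfil3, which competes with Dbp and Tef at D-boxes, was 9.35 ± 0.78 at baseline (n = 6) and had its lowest irradiated means on day 1 with RTA-408 (7.02) and on day 3 with vehicle (6.85). Clock itself, the partner of BMAL1, had baseline values of 11.51 to 13.04 and its highest means on day 7 in all 3 arms (12.8, 12.91 and 12.82). Npas2, a paralog of Clock, had group means from 7.65 to 10.07 and passed none of the tests over days, for RTA-408 or for radiation. Averaged over the days, 5 of the 12 regulators differed with radiation, against 19.2% of all features. Bmal2, a paralog of Bmal1, was higher by 1.57 ± 0.22 (adjusted p = 3.05e-06) and Clock by 0.4 ± 0.14 (0.0439), while Nfil3 (-0.95 ± 0.22, 0.00221), Csnk1e (-0.88 ± 0.23, 0.00594), which encodes a kinase of the PER proteins, and Cipc (-0.27 ± 0.1, 0.0461) were lower. Bmal2 thus differed with radiation where Bmal1 did not pass the test (0.09 ± 0.13, 0.711), and the difference between the 2 genes was not tested. On single days the regulators called for radiation were Bmal2 on day -4 (1.94, 0.0116) and day 7 (1.66, 0.0419), Csnk1e on day -4 (-1.62, 0.0456) and Nfil3 on day 3 (-2.31, 0.0097). None of the 12 was called for RTA-408 on any day.

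Clock-controlled output genes changed in part. Of 15 measured, 6 changed over the days with RTA-408, 5 with vehicle and 1 in unirradiated skin, against 6.26%, 14.2% and 1.13% of all features. Wee1, a kinase that holds cells before mitosis, passed in both irradiated arms (adjusted p = 0.00244 and 0.00253, limma), with means of 10.18 on day 1 and 8.57 on day 14 with RTA-408, and 8.67 ± 0.49 at baseline (n = 6). Usp2, a deubiquitinase with a strong daily rhythm in other tissues, passed in both too (0.0436 and 0.00089), with day 1 means of 10.21 and 10.49 against 8.72 ± 0.43 at baseline (n = 6). Tsc22d3, counted here as well as among the glucocorticoid-induced genes, passed in both. In unirradiated skin the gene called was Tfrc, the transferrin receptor (0.0341).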

How the data were processed

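The authors deposited 1 log2 signal per feature and array, and their normalization method was not given in the sources used here. Per the labels' protocols, 100 ng of RNA (mean RIN 7.15) from each punch was labelled with biotin, and 2.5 µg of cDNA was hybridised to each array. Groups, days and rats were taken from the sample titles. For unirradiated day 1 replicate 2 the description names day 3 while title and source name give day 1, and the title was followed. The array has 24834 features; without its 1646 controls, 23188 entered the fit, 8139 of them with no symbol. A linear model of 16 group means over all 46 arrays was fitted with limma 3.58.1 in R 4.3.3 (lmFit, eBayes), with Benjamini-Hochberg adjustment over all features and a threshold of 0.05. Averages over the 5 days used rat as a random block (9 rats, consensus correlation 0.00672). Arrays of 1 rat are repeat biopsies, so groups of 1 day are separate rats while days of an arm are not. Each member is represented by the feature that carries its symbol alone. The members and all gene lists were chosen with earlier results of these data known. Values for the genes most like Dbp and Bmal1 are Pearson correlations. All members are named, as are the 5 highest and 5 lowest of these correlations, the regulators called in any test, and Ciart, Nfil3, Npas2 and Clock. Other lists are given by counts with examples. Scripts were tested on simulated data. Alternatives were quantile normalization, a filter on dim features, array weights, rat or replicate number as a block, batch read from 2 spike-in controls as a block or alone, the compared groups fitted alone, each array or rat left out, and the muscle marker mean as a covariate. Promoter windows come from RefSeq (GRCr8).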

Additional observations from a re-analysis of the deposited data

How the results depend on the processing

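Of the counts of members called and the differences of Per2, Dbp and Bmal1 from baseline, most kept within 1.5 times the main count or within 1 SD of the main difference. Small differences from baseline changed sign in 3 cases: Per2 on day 7 with RTA-408 (-0.28, and 0.08 with batch as a block), Per2 on day 7 in unirradiated skin (0.09, and -0.16 to 0.34 with 1 array left out), and Dbp on day 14 with RTA-408 (0.17, and -0.12 to 0.36). No tested difference that was called changed sign. On day -4 the count called for radiation, 1 as reported, was 3 without the dimmest features, 5 with array weights, 4 with the 2 groups fitted alone, 4 with the replicate number as a block, 3 within batch I and 2 with the muscle covariate added after seeing the data. All features called numbered 1721 as reported and, in that order, 1893, 3825, 2000, 1612, 1173 and 1856. On day 14 the count of 3 became 0 with the groups fitted alone, 0 with the replicate block and 0 within batch III. All features called there numbered 0, 26 and 1, against 1614 as reported. For the change over days in unirradiated skin, 5 became 0 with batch as a block, 0 with that arm fitted alone and 0 with the rat as a replicate block. All features called in these fits numbered 62, 0 and 1, against 261 as reported. With the replicate number as a block, unirradiated Dbp minus baseline was 3.75 on day -4, 5.39 on day 1, 3.47 on day 7 and 1.97 on day 14. That block compared different rats. Baseline replicates 1 and 2 came from rats 324 and 323, and the unirradiated arrays of days -4 and 1 from rats 319 and 318. Against their own baselines, rats 319 and 318 were higher by 2.36 and 1.31 on day -4 and by 4.35 and 2.61 on day 1. The blocked values are therefore not changes within a rat. The causes of the changed counts were not tested. Leaving out 1 irradiated array gave 0 to 1 members for radiation on day -4, against 3.05% to 6.54% of all features. On day 14 it gave 1 to 3, against 1.51% to 12.8%. Leaving out an unirradiated array left a group of 1, and no count is given here. Without 1 rat the radiation average had 1 to 3 members, against 9.4% to 18.7%. For RTA-408 on day 14 the count was 0 to 1 (1 without the vehicle rat 322). For the change over days it was 7 to 8 with RTA-408, against 1.66% to 2.54%. With vehicle it was 7 to 9, against 4.21% to 11.3%. In the unirradiated arm calls were lost whichever rat was left out.

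The replicate numbers of the labels do not pair arms: deviations from group means of same-numbered arrays correlated above 0.1 in 3 of 15 pairs for RTA-408 against vehicle and in 4 of 10 for radiation, and 4 of 15 and 6 of 10 arrays correlated best with their own number. Cry1 and, at its lowest, Tef were limited by signal over background.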

Other observations

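Before any treatment the single biopsies of the 6 rats did not have the same clock gene levels. With 1 biopsy per rat, a difference between rats cannot be told apart from one between biopsies. The muscle marker mean was 6.22 in rat 323 and 18.68 to 19.42 in the others. Over the 6 baseline arrays it correlated with Nr1d1 at 0.67, Nr1d2 at 0.52, Dbp at 0.76 and Bmal1 at -0.68. Its part in these differences was not tested. Nr1d1 read 9.93 to 11.83 in rats 324, 323 and 322 and 13.35 to 13.92 in rats 321, 319 and 318. Nr1d2 read 10.04, 10.15 and 10.74 in the first 3 rats and 12.6, 11.31 and 12.1 in the others, and Dbp read 8.9, 8.27 and 9.74 against 10.56, 10.31 and 10.69. Bmal1, at 9.43, 10.17 and 9.08 against 9.9, 9.63 and 9.45, did not divide these rats. Rats 324 and 323 later received RTA-408 and rat 322 vehicle with irradiation, while rats 321, 319 and 318 all received vehicle.

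The glucocorticoid-induced gene Zbtb16 passed the test for RTA-408 on day 1, a day on which no clock gene passed it. It was at 11.98 ± 0.44 with RTA-408 (SD, n = 3) and 9.27 ± 0.28 with vehicle (n = 3) in irradiated skin, a difference of 2.71 ± 0.56 (SE; adjusted p = 0.0394, limma). It was the only one of the 10 genes of that list called for RTA-408 on any of the 5 days.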
